A study of Mus musculus with 6 samples.

Results

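Transcripts of the variable (V) genes of immunoglobulins were examined in femurs of ovariectomized (OVX) mice. All 218 rows of the expression table with the biotype IG_V_gene were taken as members, out of 54532 rows in all. By name they were 113 Ighv genes of the heavy chain locus, 100 Igkv genes of the kappa locus and 3 Iglv genes of the lambda locus, and the remaining 2, Gm43218 and Gm42543, lie among the Igkv genes on chromosome 6. The choice used biotype and name only and no measured value.

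The series holds 6 samples of wild-type (WT) genotype in 2 groups of 3, OVX with saline and a group given oral zingerone, found in ginger, at 100 mg/kg daily for 8 weeks. Ovariectomy removes the main source of estrogen and models postmenopausal osteoporosis. Only the 3 saline libraries could be tied to columns of the table, and these are called libraries 1, 2 and 3. The titles of these replicates give 8, 9 and 10 weeks for libraries 1, 2 and 3. Library and week thus go together, and differences between libraries cannot be told apart from differences between these weeks. The zingerone group was not analysed here. The labels name bone as the tissue but also RAW264.7, a macrophage-like mouse cell line, and osteoclast precursor cells. The design text calls the samples biological replicates, but no label names an animal, so the spread between libraries may be technical in part.

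Each B lymphocyte assembles its antibody genes in the bone marrow by V(D)J recombination. The RAG1 and RAG2 recombinase joins 1 V gene to a J gene, with a D gene between them in the heavy chain, and the joined exon is transcribed with a constant gene. A heavy chain pairs with a kappa or a lambda light chain, and in mice most light chains are kappa. The V gene supplies most of the antigen-binding domain, so the use of V genes in a tissue reflects the repertoire of its B and plasma cells. An expanded B cell clone carries a single heavy and usually a single light chain V gene, and plasma cells hold far more immunoglobulin RNA than resting B cells. In bulk tissue, fewer cells of a type and less RNA per cell cannot be told apart.

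Sequences of 6 V genes on which the results turn are shown first, read from the GENCODE M21 transcripts, whose build (GRCm38, mm10) is that of the table. Each gene has 2 exons, a leader exon and the V exon. For a pair of heavy and a pair of kappa genes the last 60 coding bases of exon 2 are given, the stretch that runs into the antigen-binding loop CDR3. Capitals mark the codon of the conserved cysteine before CDR3. The positions are chr12:114788372-114788431 (minus strand), chr12:115912344-115912403 (minus), chr6:68631963-68632022 (minus) and chr6:67861600-67861659 (plus). Ighv1-26 and Igkv10-96 had the highest mean level of their chains, and Ighv1-80 and Igkv17-127 led their chains in library 1.
Ighv1-26: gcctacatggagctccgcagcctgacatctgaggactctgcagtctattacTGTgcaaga
Ighv1-80: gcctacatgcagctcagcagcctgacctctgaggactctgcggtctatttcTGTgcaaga
Igkv10-96: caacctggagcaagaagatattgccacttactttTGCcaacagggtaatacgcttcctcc
Igkv17-127: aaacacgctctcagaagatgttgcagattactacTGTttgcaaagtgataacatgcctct
In these germline stretches 6 bases follow the cysteine codon in the heavy chain genes and 23 in the kappa genes, since in the heavy chain most of CDR3 comes from the D and J genes.

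Iglv1 and Iglv2 are shown over the last 300 bases of exon 2 (chr16:19085017-19085316 and chr16:19260401-19260700, both on the minus strand) because they show how alike V genes can be. Capitals mark the bases at which the pair differs.
Iglv1: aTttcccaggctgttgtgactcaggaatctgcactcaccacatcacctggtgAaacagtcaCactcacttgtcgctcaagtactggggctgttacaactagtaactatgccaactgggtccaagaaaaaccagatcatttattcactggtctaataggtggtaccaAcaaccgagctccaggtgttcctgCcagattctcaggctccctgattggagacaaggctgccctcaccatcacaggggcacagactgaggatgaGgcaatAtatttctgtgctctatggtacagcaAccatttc
Iglv2: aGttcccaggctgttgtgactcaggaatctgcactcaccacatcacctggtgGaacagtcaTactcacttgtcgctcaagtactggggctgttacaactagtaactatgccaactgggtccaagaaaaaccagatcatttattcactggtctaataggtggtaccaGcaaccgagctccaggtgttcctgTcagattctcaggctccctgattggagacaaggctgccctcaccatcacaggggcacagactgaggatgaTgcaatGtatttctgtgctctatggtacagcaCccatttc
The V exons of Iglv1 and Iglv2, 305 bases each, were 97.0% identical, with 9 mismatches, no gap and an identical stretch of 104 bases. A read that falls within such a stretch cannot be assigned to 1 gene. Among all annotated IG V genes and pseudogenes, the share of a gene's 50-base stretches found in no other gene had a median of 78.1% for Ighv, 74.8% for Igkv and 78.9% for Iglv. It was 100% for 45 of the 218 members and under 50% for 30. Values of single genes below are uncertain for this reason, to an extent that these shares do not measure. The authors' treatment of reads with several matches is not given in the sources used.

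The libraries held 16581579 to 17017907 reads over all genes. Of the marker lists of B cells, plasma cells, macrophages, neutrophils, erythroid cells and bone, 6 genes each, no gene was at 0 in all libraries. Bone, neutrophil, erythroid and B cell markers were thus present, beside the macrophage markers that the labelled cell line would have. Summed over a list, B cell markers stood at 513, 446 and 461 FPKM in libraries 1, 2 and 3, plasma cell markers at 185, 234 and 210, and bone markers at 1545, 3649 and 1387. Muscle markers, 5 genes, stood at 886, 63.5 and 584 FPKM, and T cell markers, 8 genes, at 49.3, 34.6 and 35.6. FPKM divide the fragments of a gene by its length and a size of the library. The sizes that the FPKM imply, 1.73e+07, 1.68e+07 and 1.65e+07 in libraries 1, 2 and 3, were near but not equal to the reads listed. Those were 17017907, 16964740 and 16581579. The part of other cell types in the results below was not tested.

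Most V genes were detected. Of the 218 members 200, 201 and 201 had at least 1 read in libraries 1, 2 and 3, and 167, 174 and 160 reached 1 FPKM. In every library 95 of 113 Ighv, 89 of 100 Igkv and all 3 Iglv genes had reads. The 6 genes with no read in any library were all heavy chain genes, Ighv1-16, Ighv1-24, Ighv6-7, Ighv7-2, Ighv8-13 and Ighv16-1. A count of 0 allows up to 3 reads, which for a gene of the median length of 358.5 bases is 0.484, 0.497 and 0.506 FPKM in libraries 1, 2 and 3. At the 12143 V reads of library 3, 198.2 and 200.4 genes would be detected in libraries 1 and 2, so the number of genes found hardly moved with depth.

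Summed over all members, V genes stood at 2565, 2185 and 1981 FPKM in libraries 1, 2 and 3. Library 1 was thus highest. These sums came from 16336, 13644 and 12143 reads, or 0.0960% (95% interval, exact Clopper-Pearson, 0.0945% to 0.0975%), 0.0804% (0.0791% to 0.0818%) and 0.0732% (0.0719% to 0.0745%) of all reads. The intervals do not overlap, and they cover counting error only. Of summed FPKM the share was 0.592% ± 0.0931 (SD, n = 3), larger because V genes are short.

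The 3 loci kept similar shares of V transcripts in the 3 libraries. Igkv genes took 53.7%, 50.9% and 52.8% of V FPKM in libraries 1, 2 and 3, or 52.5% ± 1.43 (SD, n = 3). Ighv genes took 39.3%, 39.4% and 38.2%, or 39.0% ± 0.632. Iglv genes took 6.96%, 9.53% and 8.91%, or 8.47% ± 1.34. On reads, the lambda share of library 1, 7.25% (95% interval 6.86% to 7.66%), lay below those of library 2, 9.92% (9.42% to 10.4%), and library 3, 9.26% (8.75% to 9.79%). The kappa to lambda ratio of V FPKM was accordingly 7.72, 5.35 and 5.92.

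**Figure D1:**
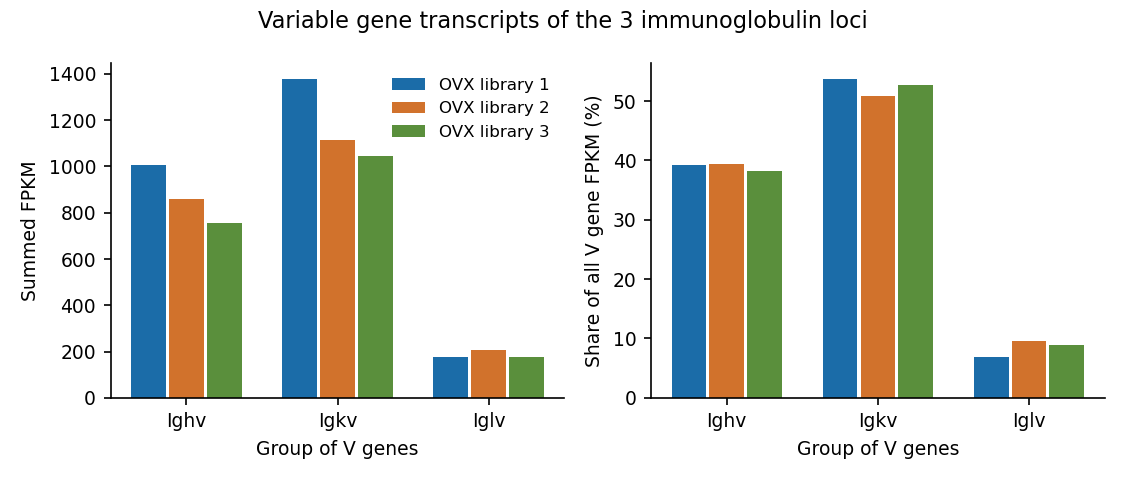
Summed FPKM of the Ighv, Igkv and Iglv genes (left) and their share of all V gene FPKM (right) in the 3 OVX libraries, 1 bar per library. Summed Igkv FPKM were 1378, 1113 and 1046 in libraries 1, 2 and 3, while the Igkv share stayed between 50.9% and 53.7%.

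Constant genes, which are part of the same transcripts, gave a like picture. Igkc, the kappa constant gene, stood at 2067, 1670 and 1557 FPKM in libraries 1, 2 and 3, and summed Igkv FPKM were 0.667, 0.667 and 0.672 times as high. Summed Ighv FPKM were 0.801, 0.790 and 0.750 times those of the heavy chain constant genes, and summed Iglv FPKM 0.675, 0.750 and 0.654 times those of Iglc1 to Iglc4. The ratio of kappa to lambda constant genes was 7.81, 6.02 and 5.77, so by V and by constant genes alike it was highest in library 1. These are ratios of levels per length.

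Use within a locus was broad and about equally even in each library. Shannon evenness, which is 1 when every gene is used equally, was 0.858, 0.873 and 0.859 over the 113 Ighv genes and 0.862, 0.871 and 0.863 over the 100 Igkv genes in libraries 1, 2 and 3. As an effective number (the number of equally used genes with the same Shannon diversity), this was 59.2 ± 2.31 Ighv genes and 53.7 ± 1.28 Igkv genes (SD, n = 3). The inverse Simpson index, which weights the leading genes more, was 44.4, 47.2 and 43.2 for Ighv and 38.1, 43.3 and 39.0 for Igkv. The 10 leading genes of a library held 36.1%, 34.5% and 37.4% of Ighv and 38.7%, 36.8% and 39.7% of Igkv FPKM. Between 16 and 18 Ighv genes and 15 or 16 Igkv genes made up 50% of their locus. Library 2 was the most even by each of these measures for both loci, by small margins and with no test.

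**Figure D2:**
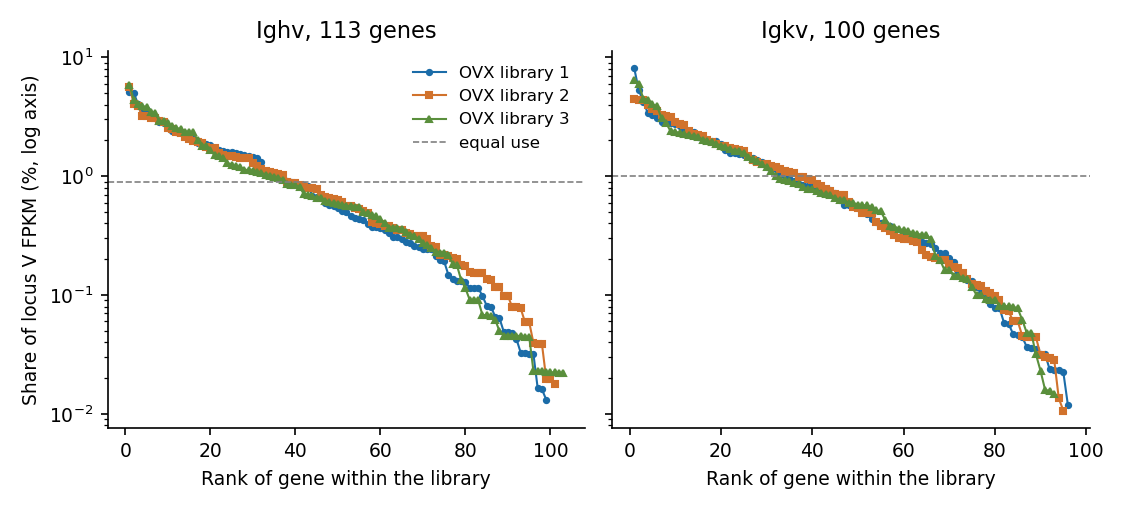
Share of locus V FPKM (log axis, %) against the rank of each gene within its library, for Ighv (left) and Igkv (right), with 1 line per OVX library and a dashed line at equal use. The 3 lines run close together, apart from the first Igkv gene, at 8.14% in library 1 against 4.47% in library 2 and 6.40% in library 3.

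The curves were alike, but the genes that filled the leading ranks were not. Of the 10 highest genes per library, 3 Ighv genes (Ighv1-26, Ighv1-55 and Ighv1-82) were common to all 3 libraries out of 17 that appeared in any, and 2 Igkv genes (Igkv1-117 and Igkv10-96) out of 22. Ighv1-80 led the heavy chain in library 1 and Ighv1-26 in libraries 2 and 3. Igkv17-127 led the kappa chain in library 1, Igkv15-103 in library 2 and Igkv3-2 in library 3. Across the 85 Ighv genes whose mean reached 1 FPKM, Spearman's rho was 0.755 between libraries 1 and 2, 0.803 between 1 and 3, and 0.735 between 2 and 3. Across 83 Igkv genes it was 0.764, 0.760 and 0.776 in the same order. Over all 14011 genes at that mean it was 0.953, 0.977 and 0.961, where genes have more reads. These are descriptions across genes, which are not independent replicates.

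Differences between libraries were tested per gene on the reads behind the FPKM, in a chi-square test scaled to the reads of each library. P-values were adjusted by Benjamini-Hochberg over the 14011 genes whose mean reached 1 FPKM. The test compares libraries of a single group, not conditions, and its p-values allow for counting error only, so with enough reads any variation between libraries is called. Of the members, 172 reached that mean and 46 did not. The weakest member that passed was Ighv1-62-3, at a mean of 1.03 FPKM, and the strongest that did not was Ighv1-11, at 0.966. Of the 172, 122 (70.9%) differed between libraries at an adjusted p below 0.05, where 38.7% of all tested genes did. By locus these were 58 of 85 Ighv, 62 of 83 Igkv and 2 of 3 Iglv genes. Of the 122 genes called, 60 (49.2%) were highest in library 1, 39 in library 2 and 23 in library 3. Library 1 was also the most frequent among all 5418 called genes, with 39.5%. Measured against the total of their own locus instead, 105 genes were called, 101 of them among the 122, where 38.5% of all tested genes were called. Without library 1 the count was 73 of 173 tested, where 24.9% of all tested genes were called.

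The differences were also wider in V genes than over the whole table. A 2-fold range over the libraries, on the log2(FPKM + 1) scale, was reached by 82 of 172 V genes (47.7%) and by 5.89% of all tested genes. Without library 1, 2 or 3, 45 of 173 (against 3.73% of all), 47 of 168 (1.98%) and 43 of 172 (4.30%) V genes reached it between the remaining libraries. The median range on that scale was 0.92 for Ighv and 1.10 for Igkv genes, and 0.17 for all tested genes. V genes had fewer reads, with a median of 54.2 per library against 486.7 over all tested genes. Among genes with 100 to 1000 reads per library, however, 46 of 52 V genes (88.5%) were called and their median range was 0.87, against 34.9% and 0.18 for the 7252 genes of that depth. After removal of counting noise, the median V gene varied by 37.6% (coefficient of variation) and the median of all tested genes by 5.12%.

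**Figure D3:**
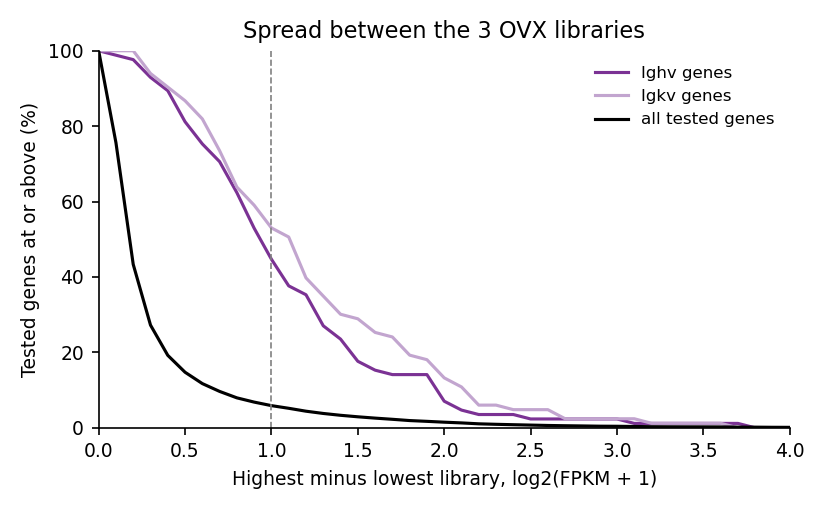
Percent of tested genes (y axis) whose range between the highest and lowest OVX library, on the log2(FPKM + 1) scale, is at or above the value on the x axis, for Ighv genes, Igkv genes and all tested genes. At a range of 1, marked by the dashed line, the curves stand at 44.7% for Ighv, 53.0% for Igkv and 5.89% for all genes.

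Among heavy chain genes, Ighv1-26 (ENSMUSG00000094546, chr12:114788372-114788805) was the most used, at 50.6, 48.4 and 44.5 FPKM in libraries 1, 2 and 3. The values lay close together, and no difference beyond counting noise was detectable (chi-square test, adjusted p = 0.330). It took 5.51% ± 0.432 of Ighv FPKM (SD, n = 3). Of its 50-base stretches 51.0% are its own, so its level may include or lack reads of related genes. Ighv1-55 stood at 31.2, 26.3 and 29.6 FPKM and Ighv3-6 at 21.2, 25.3 and 26.1, again with no detectable difference (adjusted p = 0.247 and 0.365).

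Ighv1-80 (ENSMUSG00000094075, chr12:115912344-115912776) had 311, 75 and 128 reads in libraries 1, 2 and 3, a level of 51.3, 12.7 and 22.1 FPKM. It was highest in library 1 and differed between libraries (chi-square test, adjusted p = 3.58e-37), also without library 1 (adjusted p = 0.000849). Ighv1-82, at 40.6, 35.1 and 22.1 FPKM, was lowest in library 3 (adjusted p = 6.57e-08, and 0.145 without library 3). Ighv6-3, at 37.1, 20.2 and 18.9 FPKM, and Ighv8-12, at 36.5, 17.7 and 19.9, were highest in library 1 (adjusted p = 5.86e-11 and 1.37e-11, and 0.777 and 0.559 without library 1). Ighv1-53 had the other order, at 15.8, 27.6 and 25.7 FPKM, lowest in library 1 (adjusted p = 0.000387, and 0.721 without library 1).

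Low heavy chain genes held the widest ranges. Ighv1-37 had 0, 76 and 0 reads in libraries 1, 2 and 3 and stood at 12.9 FPKM in library 2. That is at least 24.9-fold higher than the 3 reads a count of 0 allows in another library. Ighv1-31 stood at 1.15, 8.96 and 0.172 FPKM, with 7, 53 and 1 reads. Both were highest in library 2, and both were called (adjusted p = 6.30e-32 and 1.54e-16). By plain ratio, 11 of the 85 tested Ighv genes differed at least 5-fold between libraries and 16 by less than 1.5-fold. All 11 were called, but several rest on few reads, such as Ighv1-49 with 13, 6 and 2 in libraries 1, 2 and 3. Counting error can widen a plain ratio at such depth. No share of all tested genes at these ratios was taken for comparison.

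Among kappa genes, Igkv10-96 (ENSMUSG00000094420, chr6:68631963-68632442) had the highest mean, at 73.2, 44.1 and 62.0 FPKM in libraries 1, 2 and 3. It was lowest in library 2 (chi-square test, adjusted p = 5.49e-10). Igkv1-117 stood at 58.4, 48.9 and 47.0 FPKM, a narrower range (adjusted p = 0.00873, and 0.789 without library 1). These were the kappa genes found among the 10 highest of every library.

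Igkv17-127 (ENSMUSG00000076508, chr6:67861153-67861659) showed the widest range among the 10 kappa genes with the highest means. It had 696, 131 and 102 reads in libraries 1, 2 and 3, a level of 112, 21.7 and 17.2 FPKM, and held 8.14% of Igkv FPKM in library 1. Library 1 stood far above the others (adjusted p = 9.07e-153), while no difference was detectable between libraries 2 and 3 (adjusted p = 0.211 without library 1). Igkv3-2, at 27.4, 14.0 and 66.9 FPKM, was highest in library 3 (adjusted p = 2.53e-56). Igkv15-103, at 11.6, 49.7 and 40.6 FPKM, was lowest in library 1 (adjusted p = 7.14e-31, and 0.0716 without library 1). Igkv12-44, at 33.0, 40.7 and 12.4 FPKM, was lowest in library 3 (adjusted p = 5.45e-21, and 0.103 without library 3).

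Further kappa genes stood high in a single library. Igkv4-50 stood at 42.9, 11.0 and 3.95 FPKM and Igkv6-13 at 22.7, 3.31 and 0.842, both highest in library 1 (adjusted p = 5.25e-58 and 4.91e-42). Igkv13-84 was highest in library 2, at 34.9 FPKM against 6.004 in library 1 and 7.84 in library 3 (adjusted p = 2.01e-39, and 0.495 without library 2). Of the 83 tested Igkv genes 13 differed at least 5-fold and 12 by less than 1.5-fold, again with no share of all tested genes for comparison. All 13 were called, and some of them rest on few reads, such as Igkv7-33 with 9, 25 and 2 in libraries 1, 2 and 3.

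**Figure D4:**
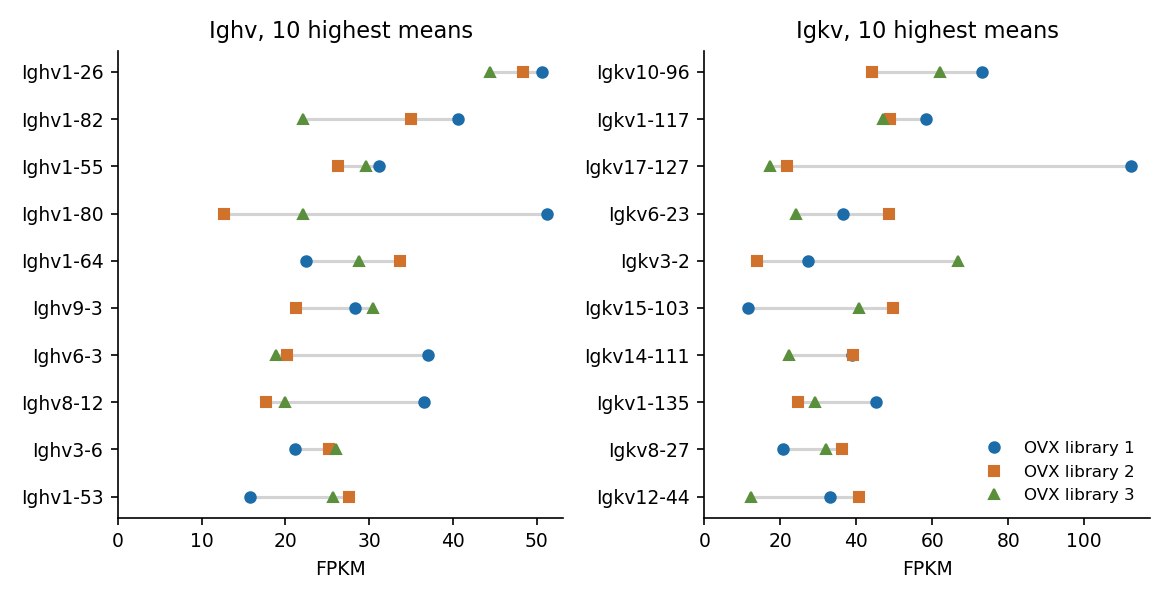
FPKM of the 10 Ighv (left) and 10 Igkv (right) genes with the highest means, with 1 symbol per OVX library and a grey line from the lowest to the highest. Ighv1-26 lies between 44.5 and 50.6 FPKM, whereas Igkv17-127 runs from 17.2 to 112.

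Each lambda V gene was highly used, and each had a range over libraries (0.41, 0.40 and 0.06 for Iglv1, Iglv2 and Iglv3 on the log2(FPKM + 1) scale) below the V gene median of 0.95. Iglv1 (ENSMUSG00000076934, chr16:19085017-19085500) stood at 108, 144 and 116 FPKM in libraries 1, 2 and 3, the highest mean of all members. It was highest in library 2 (adjusted p = 5.34e-07, and 0.530 without library 2). Iglv3 stood at 35.2, 35.4 and 34.0 FPKM, with no difference detectable (adjusted p = 0.885). Iglv2 stood at 35.3, 29.0 and 26.4 FPKM (adjusted p = 0.0233, and 0.603 without library 1 and 0.0885 without library 3). Iglv1 took 65.1% ± 4.31 of Iglv FPKM, Iglv3 18.7% ± 1.46 and Iglv2 16.2% ± 3.10 (SD, n = 3). The likeness of Iglv1 and Iglv2 in the sequences above applies to both values. In the mouse lambda locus Iglv1 is known to join mainly to the cluster of Iglc1 and Iglc3 and the other two V genes mainly to Iglc2. Iglc1 and Iglc3 together stood at 173, 207 and 194 FPKM, the same order of libraries as Iglv1. That order came from Iglc1, at 123, 164 and 149, since Iglc3, at 50.4, 42.6 and 45.5, had the reverse order, with no detectable difference (adjusted p = 0.0756). In turn, Iglv2 and Iglv3 together stood at 70.5, 64.4 and 60.4 and Iglc2 at 91.3, 70.5 and 75.5, each highest in library 1. For the V pair this came from Iglv2, since Iglv3 was not highest in library 1. Libraries 2 and 3 stood in opposite order in the V pair and in Iglc2.

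V genes are grouped in families of like sequence, given by the first number of the name, and there were 16 Ighv and 20 Igkv families. Ighv1, the largest heavy chain family, held 53 of 113 genes (46.9%) and 58.3% ± 2.34 of Ighv FPKM (SD, n = 3). Ighv5, with 10 genes, followed at 7.54% ± 1.34, led by Ighv5-16 at 24.1, 12.8 and 13.5 FPKM. Ighv8 took 5.42% ± 1.70, Ighv14 4.29% ± 1.13, Ighv6 4.10% ± 0.789, Ighv3 3.99% ± 0.921 and Ighv9 3.92% ± 0.791. Ighv2 was level, at 3.01%, 3.21% and 2.87% in libraries 1, 2 and 3. Of its 7 tested genes 1 was called, where 38.7% of all tested genes and 70.9% of tested V genes were. Its genes had few reads, with 52, 45 and 37 for Ighv2-2, the highest of them. Ighv7 took 1.52%, 5.13% and 2.23% and Ighv4-1, the only gene of its family, stood at 8.81, 24.7 and 9.06 FPKM, both highest in library 2. Ighv16-1, likewise alone in its family, had no read.

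Kappa use was spread over more families. Igkv4 was the largest, with 26 of 100 genes, and took 14.1% ± 0.685 of Igkv FPKM (SD, n = 3), less than its share of genes. Igkv6 took 11.8% ± 1.13, Igkv1 10.7% ± 0.425, Igkv3 10.2% ± 1.59 and Igkv8 9.63% ± 2.14. Igkv10 took 6.11% ± 0.919 from 3 genes, of which Igkv10-96 alone gave 82.7%. Igkv17, a family of 2 genes, took 11.0%, 3.97% and 3.33% in libraries 1, 2 and 3, high in library 1. Igkv13 took 0.980%, 4.46% and 1.32%, high in library 2, and Igkv15, with the single gene Igkv15-103, 0.840%, 4.47% and 3.89%, low in library 1. Over families the effective number was lower for the heavy chain, at 5.27 ± 0.295 Ighv and 13.1 ± 0.679 Igkv families (SD, n = 3).

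Position was described by the distance to the J genes, to which V genes are joined. All 113 Ighv genes lie on the strand of the Ighj genes, from 149 to 2570 kb away. Ranked by distance and divided in 3 groups of near equal size, the 37 nearest genes (to 824 kb) took 24.1%, 26.6% and 23.3% of Ighv FPKM in libraries 1, 2 and 3, the 38 middle genes 32.6%, 36.0% and 36.6%, and the 38 farthest (from 1594 kb) 43.3%, 37.4% and 40.1%. The farthest group was highest and the nearest lowest in every library. None of the nearest 37 genes, 23 of the middle 38 and 30 of the farthest 38 belong to Ighv1, so the nearest group differs from the others in family as well as in distance. Within Ighv1 the 30 farthest genes, 56.6% of the family, took 63.4%, 57.0% and 59.3% of its FPKM in libraries 1, 2 and 3. Genes of other families had a median of 3.53 FPKM in the nearest group (37 genes), 3.54 in the middle (15) and 0.524 in the farthest (8). For Igkv the 33 nearest genes (to 779 kb) took 32.1% ± 2.60, the 33 middle genes 26.3% ± 3.65 and the 34 farthest (from 1887 kb) 41.6% ± 1.83 (SD, n = 3). The median Igkv gene had a mean of 7.77 FPKM in the nearest, 7.83 in the middle and 5.96 in the farthest group. The farthest group thus had the largest share but the lowest median.

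Kappa V genes lie on both strands. Those on the strand of the Igkj genes join with deletion of the DNA between them, and the others join by inversion. The 38 genes on the Igkj strand took 46.2%, 43.7% and 45.3% of Igkv FPKM in libraries 1, 2 and 3, and the 62 on the opposite strand took 53.8%, 56.3% and 54.7%. The median gene had a mean of 7.46 FPKM on the Igkj strand and 7.03 on the opposite strand.

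**Figure D5:**
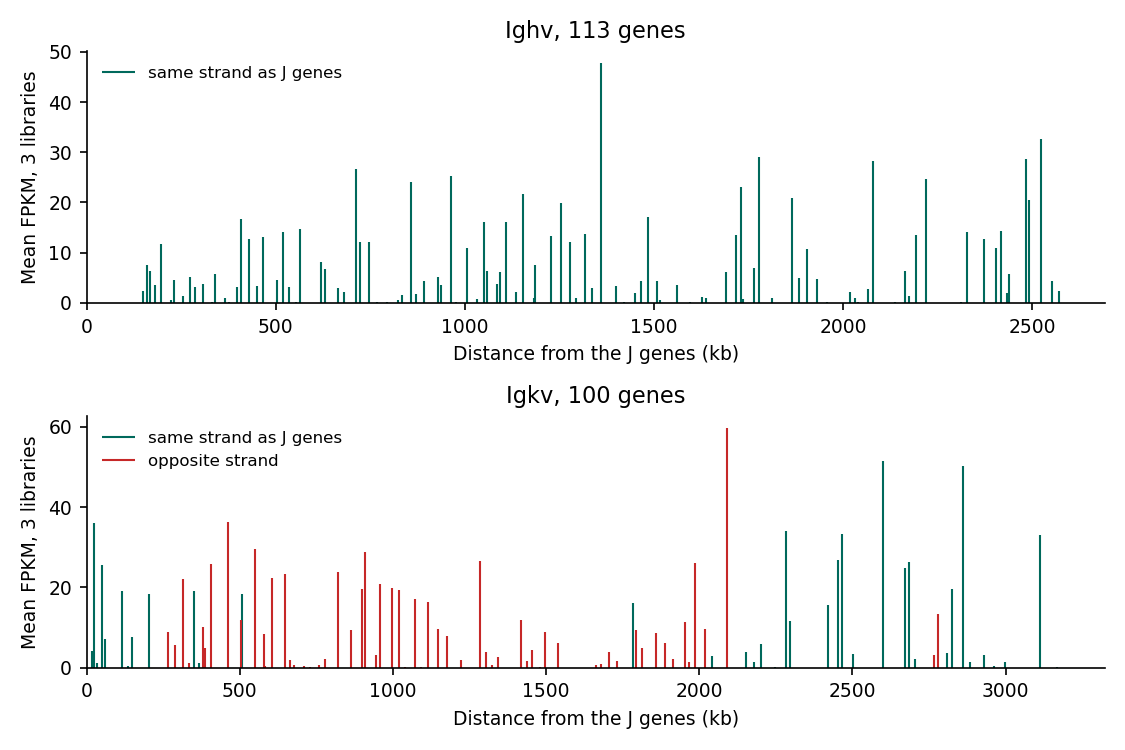
Mean FPKM over the 3 OVX libraries of each Ighv (top) and Igkv (bottom) gene against its distance from the J genes in kb, coloured by strand relative to the J genes. Genes above 10 FPKM lie in the nearest, middle and farthest groups of both loci.

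The level of use showed little steady rise or fall with how much of a gene's sequence is its own, though classes of genes differed. Across all 218 members Spearman's rho of the mean FPKM and the share of unique 50-base stretches was -0.081, a description across genes. Ighv genes whose stretches were all unique had a median mean of 0.866 FPKM (20 genes), those between 50% and 100% had 5.82 (79 genes) and those under 50% had 3.29 (14 genes). For Igkv the medians were 5.87 (23 genes), 8.73 (62) and 5.02 (15). In both loci the middle class was highest. Igkv4-50, at 97.7% unique, and Ighv12-3, at 100% and with 3.11, 1.01 and 6.51 FPKM (adjusted p = 1.99e-05), are genes with wide ranges that share little sequence with others. Other genes with wide ranges share more, with Igkv17-127 at 60.2%, Ighv1-37 at 55.3%, Ighv1-31 at 65.9% and Igkv13-84 at 51.7% unique. The part of shared reads in these ranges was not tested. Gm43218, with 16.6% unique, stood at 0.673, 1.55 and 1.05 FPKM, and Gm42543 at 0.328, 1.85 and 0.514.

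Genes of V(D)J recombination and of the pre-B receptor had narrower ranges than the V gene median of 0.95. Their median ranges were near the 0.17 of all tested genes. Of 15 genes of V(D)J recombination 8 differed between libraries, where 38.7% of all tested genes did, and their median range was 0.14 on the log2(FPKM + 1) scale. The recombinase gene Rag1 stood at 42.4, 36.7 and 33.1 FPKM (adjusted p = 8.85e-33) and Rag2 at 5.14, 4.94 and 4.70 (adjusted p = 0.552). Dntt, the terminal transferase that adds bases at the joints, stood at 21.9, 28.3 and 21.4 (adjusted p = 1.59e-08). Of 12 genes of the pre-B receptor and its signalling 10 were called, with a median range of 0.14. Of the 10, 7 were highest in library 1, as were 39.5% of all called genes. Among the 7 is Cd79a, a signalling chain of the receptor, at 180, 163 and 167 FPKM (adjusted p = 8.61e-08). The other 3, all of the surrogate light chain, were highest in library 2. Of these, Vpreb1 stood at 26.5, 33.9 and 27.8 FPKM and Igll1 at 23.3, 30.2 and 22.6 (adjusted p = 0.000466 and 1.05e-09).

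B cell and plasma cell genes had different orders over the libraries. Counts of called genes are again read against the 38.7% of all tested genes. Of the 5418 genes called over the whole table, 39.5%, 33.6% and 26.9% were highest in libraries 1, 2 and 3. In the same order of libraries, 1520, 2308 and 1590 of them were lowest. Of 14 mature B cell genes 11 were called, 10 of them highest in library 1, with a median range of 0.19. Of 15 tested plasma cell genes 14 were called, 9 of them highest in library 2, 4 in library 1 and 1 in library 3, with a median range of 0.26. Of the 14, 9 were lowest in library 3, such as Xbp1, a transcription factor of secretory cells, at 53.2, 58.8 and 52.0 FPKM (adjusted p = 8.75e-05), and 4 were lowest in library 1. Jchain, which links IgM and IgA into polymers, at 75.1, 109 and 103 FPKM (adjusted p = 7.95e-56), and Sdc1, the plasma cell surface protein CD138, at 8.89, 13.9 and 11.6 (adjusted p = 2.22e-13), are among these 4. Of 8 tested genes of class switching and the germinal centre 4 were called (50%), with a median range of 0.17. No tested member of these 5 lists reached a 2-fold range on the log2(FPKM + 1) scale, where 5.89% of all tested genes did. By plain ratio Vpreb2, Derl3 and Fkbp11 reached 2-fold, at 2.07, 2.05 and 2.17. The part of these B and plasma cell orders in the V gene differences was not tested.

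Heavy chain constant genes, which give the antibody class, differed in how far they ranged. Ighg1 stood at 265.5, 12.6 and 23.2 FPKM in libraries 1, 2 and 3, or 21.1-fold between the highest and lowest, Ighg2c at 91.3, 18.3 and 19.7, and Ighg2b at 92.3, 33.8 and 29.0. The IgG genes together held 35.8%, 6.42% and 7.32% of heavy chain constant FPKM, so library 1 stood apart. Ighg3, the lowest of the IgG genes, went the other way, at 1.11, 5.32 and 2.05 FPKM, lowest in library 1. Igha, of IgA, stood at 122, 343 and 287 FPKM, lowest in library 1, while Ighm, of IgM, at 617, 617 and 586, and Ighd, of IgD, at 66.8, 58.5 and 62.5, had narrow ranges. Which V gene was joined to which constant gene cannot be read from values per gene.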

How the data were processed

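RNA was sequenced from femurs, frozen and ground per the labels' protocols. The submitters' processing notes name Trimmomatic, FastQC, STAR and featureCounts and the build mm10. Versions, strandedness, annotation and the treatment of reads with several matches are not given in the sources used. FPKM were deposited by the authors, 1 value for each gene of a library. Columns were matched to samples by library name, which held for OVX replicates 1, 2 and 3. A further 3 columns of values matched no label and were not used, so the planned limma comparison with zingerone, with its alternatives, was not run.

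FPKM multiplied by the listed gene length gave whole reads for 100% of values, within 0.01 read, in each library. A chi-square test set these reads against the total reads listed per library, for the 14011 genes whose mean reached 1 FPKM. P-values were adjusted by Benjamini-Hochberg over all of them, and the test was checked on simulated data. Alternatives were other filters and scalings, reads for FPKM, added pseudogenes, families as the unit, equal V reads and each library left out. All 218 members had the same coordinates in GENCODE M21. The members and gene lists were chosen with earlier results of these data known. Named genes were the 10 highest Ighv and Igkv genes by mean FPKM, all Iglv genes, the 5 widest ranges and the highest gene of each family. Genes with no read, those beside the filter and Gm43218 and Gm42543 were named after their values were seen. No V gene was found in the promoter table used, so transcripts were used for sequences. Calculations used scipy 1.17.1, pandas 2.3.3, numpy 2.4.6, matplotlib 3.10.9 and biopython 1.88 under Python 3.11.15.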

Additional observations from a re-analysis of the deposited data

How the results depend on the processing

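With 3 libraries of 1 group, single genes show only that libraries differ. No paired analysis was possible because only 1 of the 2 groups had columns tied to its samples. Locus shares moved by less than 1 SD with reads in place of FPKM, with only genes past the filter of 1 FPKM, and with pseudogenes added. Without 1 library they ran from 38.7% to 39.3% for Ighv, 51.9% to 53.3% for Igkv and 7.94% to 9.22% for Iglv. The share of all FPKM, 0.592%, was 0.0832% of reads, since V genes are short, and ran from 0.542% to 0.634% without 1 library. Effective numbers were 56.6 Ighv and 52.4 Igkv genes with only genes whose mean reached 1 FPKM, 62.8 and 55.6 with pseudogenes, and 5.27 and 13.1 over families. Without 1 library they ran from 57.9 to 59.9 and from 53.0 to 54.2. The mean number of members detected, 200.7, was 171.3 with that filter, 238.3 with pseudogenes and 199.9 at equal V reads, and ran from 200.5 to 201 without 1 library. The count of V genes that differed was 122 of 172 tested (38.7% of all genes). It was 118 of 212 (22.4%) with no filter and 92 of 109 (44.9%) from 5 FPKM. With median-of-ratios scaling it was 118 of 172 (37.4%), and against the own locus 105 of 172 (38.5%). Without libraries 1, 2 and 3 it was 73 of 173 (24.9%), 86 of 168 (18.0%) and 88 of 172 (29.8%). The count of genes with a 2-fold range, 82, was 43 to 47 without 1 library, an alternative added after seeing the data. Fewer libraries were compared in both. Of the 122 genes, 72, 85 and 86 were among those called without libraries 1, 2 and 3. Of 46 named genes, 13 and 9 lost their call without libraries 1 and 3, and 10 of the 43 still tested without library 2. Ighv1-37, Ighv1-31 and Igkv7-33 fell below the filter without library 2. None lost or gained one with no filter or median-of-ratios scaling, nor did any of the 40 still tested at 5 FPKM.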

Other observations

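The 155 immunoglobulin V pseudogenes summed to 37.4, 32.1 and 26.1 FPKM in libraries 1, 2 and 3, and 96 of them had no read in any library. The highest was Ighv1-41, at 7.56, 6.68 and 5.15 FPKM. The 144 V genes of T cell receptors summed to 23.1, 15.3 and 18.5 FPKM and 3 of them reached a mean of 1 FPKM. The highest was Trbv13-2, at 2.89, 2.44 and 4.27 FPKM. These T cell receptor genes held 155, 100 and 118 reads in all.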
